A study of Mus musculus with 2 samples.

Results

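The cytosolic ribosomal protein genes of the newborn mouse heart were examined in single cells. Members were the features whose symbol is Rpl or Rps followed by a digit, or is Rplp0, Rplp1, Rplp2 or Rpsa, without pseudogenes and without the Rps6k kinases. The name matched 87 features, 1 of which (Rpl6l) is annotated as a processed pseudogene and was left out, so 86 of 27999 features were members. They comprised 77 standard genes (46 of the large and 31 of the small subunit), 8 paralogues and Rps19bp1, which encodes a binding partner of Rps19. Fau also encodes a ribosomal protein but is named otherwise, and it was counted with the related translation genes described further on. The cells came from whole hearts at postnatal day 0 of mice with the background C57BL6+ICR, and all of them belonged to 1 group, P0 whole heart. No treatment or engineered allele is named for it, and how many hearts were combined is not stated in the sources used here. The group held 1 biological sample with 2 technical replicates, so the values of both replicates are set side by side and no p-value is given. In the series these cells served as a reference map from which transcription factors for direct lineage conversion were picked.

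Technical replicates 1 and 2 held 5888 and 6047 barcodes, with 34668956 and 33871582 counts. Whether a count is a molecule or a read is not stated in the sources used here. Both records carry the same internal sample name while the second matrix carries another; the pairing recorded at deposit was kept. The replicates shared 53 cell barcodes. Of 11749 barcodes with at least 500 detected genes, 8601 also had under 0.5% of their counts from 8 haemoglobin genes and were kept (4596 and 4005). Of the 3148 that the haemoglobin limit removed, 3057 had at least 1% of their non-mitochondrial counts from cardiomyocyte markers. Marker genes placed 8064 cells in 7 types, namely 5451 cardiomyocytes, 1192 fibroblasts, 682 vascular endothelial cells, 138 endocardial cells, 219 pericytes, 235 smooth muscle cells and 147 macrophages. A further 252 barcodes met the cardiomyocyte gate and another gate, and 147 lay between gates. Both sets stayed out of the comparisons, and no doublet caller was run. Levels are given as CPM, counts per 1000000 non-mitochondrial counts summed over the cells of a type. The defining markers followed the gates, with Tnnt2 (cardiac troponin T) at 7483 and 7609 CPM in cardiomyocytes and at 189.9 to 791 CPM in the other 6 types.

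A cytosolic ribosome joins a small subunit, which reads the messenger RNA, to a large subunit, which forms the peptide bond. Each subunit is built from ribosomal RNA and a set of small basic proteins made in nearly matching amounts. In mammals many of their messenger RNAs begin with a C inside a run of pyrimidines, the 5′ terminal oligopyrimidine (TOP) motif, through which mTOR signalling controls their translation. Around birth, heart muscle cells are leaving the cell cycle and turning to growth by enlargement, while many other cells of the heart keep dividing.

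To show a feature that many members have at the start site, and some lack, the 30 bases from 15 before to 15 after the annotated start are given for members to which the results return, and for 3 with long runs. They are from RefSeq promoters on GRCm38.p6, read 5′ to 3′ on the gene's strand, and capitals mark the longest run of C and T that opens with C. The members, in order, are Rps6 (chr4:86857353-86857382, minus strand), Rpl35 (chr2:39005117-39005146, minus), Rpl7a (chr2:26910792-26910821, plus), Rps18 (chr17:33955651-33955680, minus), Rpl39 (chrX:37085208-37085237, minus), Rps27l (chr9:66946071-66946100, plus), Rpl36al (chr12:69184053-69184082, minus) and Rpl3l (chr17:24727811-24727840, plus).
Rps6: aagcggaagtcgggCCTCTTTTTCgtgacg
Rpl35: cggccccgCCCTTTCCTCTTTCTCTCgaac
Rpl7a: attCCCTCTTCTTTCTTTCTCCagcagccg
Rps18: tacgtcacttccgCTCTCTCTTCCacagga
Rpl39: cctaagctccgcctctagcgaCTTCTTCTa
Rps27l: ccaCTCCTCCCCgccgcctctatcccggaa
Rpl36al: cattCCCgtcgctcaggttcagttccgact
Rpl3l: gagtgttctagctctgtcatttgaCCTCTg

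Runs of 8 or more pyrimidines opening with C stood in this window in 24 of the 57 standard members that have a promoter entry (42.1%), against 10.8% of the 27025 genes of the table. A gene with several promoter entries was counted if any of them held such a run. Among the windows printed, the runs were 10 bases in Rps6, 18 in Rpl35, 19 in Rpl7a, 11 in Rps18, 8 in Rpl39 and 9 in Rps27l, and only 3 in Rpl36al and 5 in Rpl3l. Rps27l and Rpl3l each have another entry, not printed, with a run of 4 bases. The letters CCGGAAG, searched on both strands of the 300 bases from 250 before to 50 after the start, were present in 42.1% of these members and 9.9% of all genes. TATAAA, on both strands of the same 300 bases, was present in 10.5% of members and 15.7% of all genes. These matches describe letters and do not show binding or a start site used in these cells.

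The 86 members together held 8.62% and 8.49% of the non-mitochondrial counts of cardiomyocytes in technical replicates 1 and 2, and a larger share in every other type. Vascular endothelium had 19.99% and 19.5%, fibroblasts 19.4% and 18.9%, and endocardium 19.2% and 19.0%. Macrophages had 17.7% and 17.4%, pericytes 16.6% and 16.1%, and smooth muscle 15.6% and 14.3%. The 6 other types summed had 2.23 and 2.20 times the cardiomyocyte share, and 2.22 times with both replicates pooled (95% exact interval 2.21 to 2.22, for counting error only). The order of the types was the same in both replicates except that fibroblasts and endocardium changed places. The ratio to cardiomyocytes was 2.31 in vascular endothelium, 2.24 in fibroblasts and endocardium, 2.05 in macrophages, 1.91 in pericytes and 1.75 in smooth muscle. These shares are not matched for counts per cell, which differed between types. Smaller sets gave a share of 20.3% in both replicates for 55 epicardial cells, and 27.0% and 27.1% for 31 T, NK and B cells together. Barcodes that met the cardiomyocyte gate and another one had 13.5% and 11.4%, between the shares of cardiomyocytes and of the other types.

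**Figure D1:**
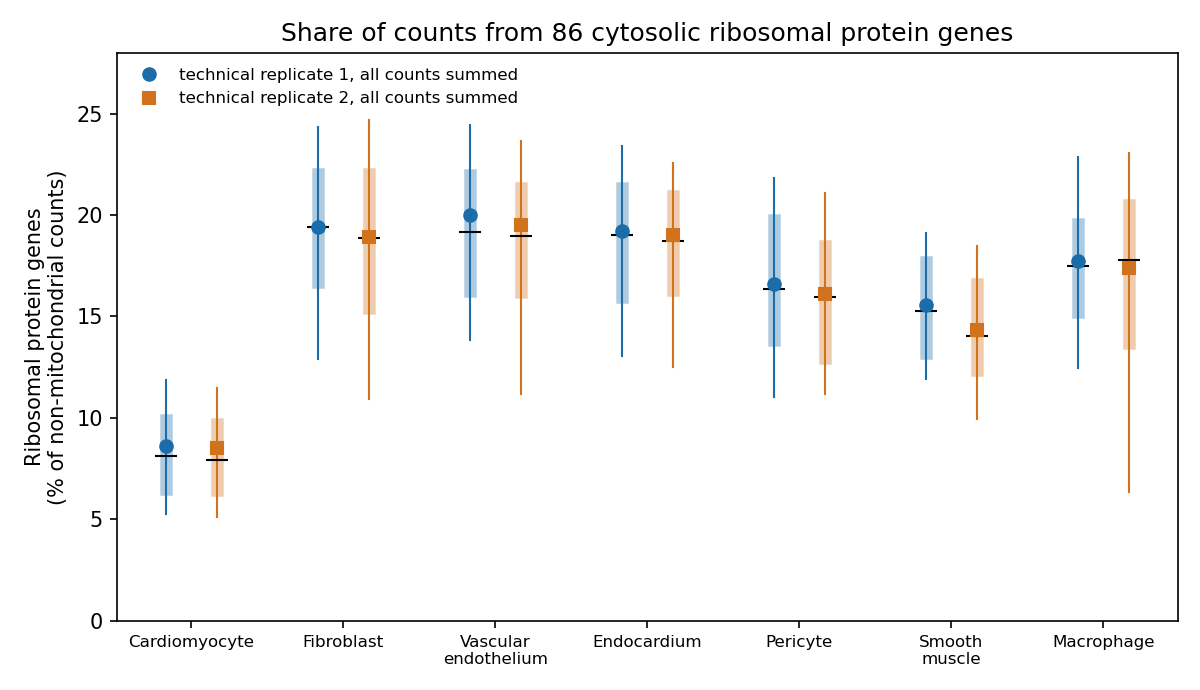
Share of non-mitochondrial counts from the 86 genes (y axis, percent) in 7 gated cell types (x axis) and 2 technical replicates. Points are the share of all counts summed, thin lines run from the 10th to the 90th percentile of single cells, thick bars from the 25th to the 75th, and black dashes are medians. Cardiomyocytes sit at 8.62% and 8.49%, below every other type, while single cells of neighbouring types overlap widely.

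Single cells varied more than counting error allows. Among cardiomyocytes the share ran from 5.19% at the 10th to 11.7% at the 90th percentile, with an SD over cells of 2.63 points where counting alone gives about 0.510. Among fibroblasts the same percentiles were 11.9% and 24.5%. Depth moved with the share inside a type. Cardiomyocytes with under 2000 non-mitochondrial counts had 7.87% and those with 8000 or more had 9.45%. Fibroblasts had 14.3% in the 33 cells under 2000 counts, 17.2% at 2000 to 4000, 19.7% at 4000 to 8000 and 19.3% above. Vascular endothelium had 16.7% at 2000 to 4000, 18.1% at 4000 to 8000 and 20.2% above. Its median was 8960.5 non-mitochondrial counts per cell, against 5367.5 in fibroblasts. Which of these types had the larger share thus depended on depth, and the mean over cells was 18.7% in both. The large subunit took 57.6% of the counts of standard members in cardiomyocytes and 54.4% to 56.6% in the other 6 types.

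Cardiomyocytes also differed from the other types in mitochondrial RNA, with a median of 36.6% of counts against 3.17% to 5.33% elsewhere. In cardiomyocytes the ribosomal protein share was 8.84% in cells with under 10% mitochondrial counts, 9.32% at 10 to 20% and 6.75% at 50% or more. When only cells under 10% were compared in every type, an alternative added after the data were seen, the 6 other types had 2.15 times the cardiomyocyte share. The ratio was 1.99 when the 100 highest non-member genes left the denominator and 3.29 with mitochondrial counts in it. A share does not give amounts per cell, so less ribosomal protein RNA and more of other RNA cannot be told apart.

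The difference was spread over nearly the whole family. Of the 77 standard members, 76 reached 100 counts over both groups in each replicate, and each of these 76 was higher in all 6 other types than in cardiomyocytes in both replicates. In the mean of the 6 types, weighted equally, 71 of the 76 were at least 1.5 times higher, where 34.6% of all 10780 genes tested were, and none was that much lower. The median fold of the standard members was 2.17 and 2.14, beside 1.17 and 1.16 for all genes tested. By type, 74 members were at least 1.5 times higher in fibroblasts (27.9% of all genes tested), 72 in vascular endothelium (29.5%), 65 in endocardium (25.4%), 65 in pericytes (24.6%), 55 in smooth muscle (20.1%) and 67 in macrophages (18.1%). These 6 comparisons share the cardiomyocytes, so they are not independent of each other. Rpl8 and Rps15a, 1 protein of each subunit, lay nearest the family median, at 2.16 and 2.15 fold for Rpl8 and 2.17 and 2.12 fold for Rps15a.

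**Figure D2:**
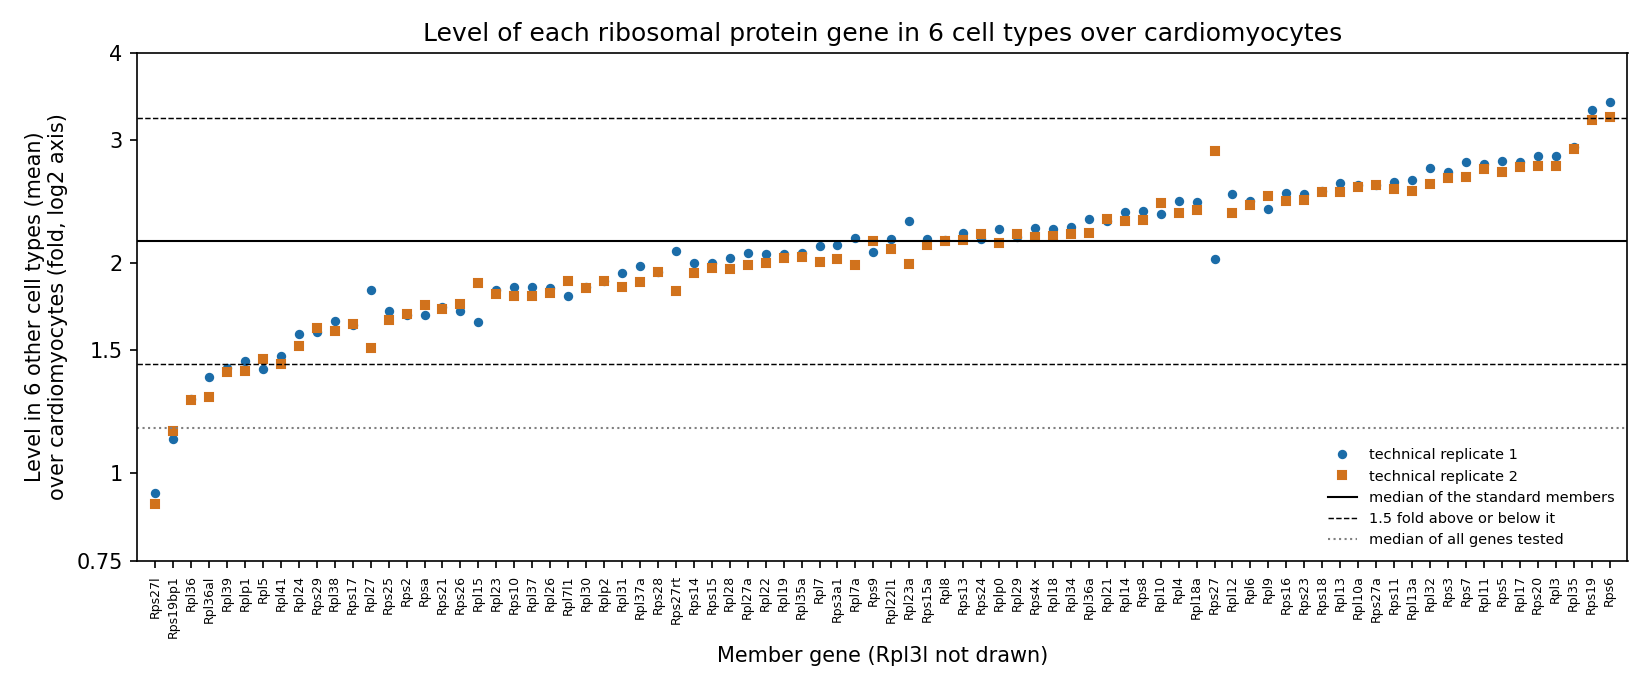
Level of each member tested in the mean of 6 cell types over its level in cardiomyocytes (y axis, fold on a log2 scale), sorted by size. Circles and squares are technical replicates 1 and 2. Rpl3l, which lies far lower, is not drawn. The solid line is the median of the standard members, dashed lines lie 1.5 fold from it, and the dotted line is the median of all genes tested. Most members lie between 1.5 and 3 fold, Rps27l lies below 1 and Rps6 and Rps19 at the top.

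A member was said to depart when its fold differed from the family median by at least 1.5 times in the same direction in both replicates. Of the 83 members tested, 7 departed in the mean of the 6 types, against 71.6% of all genes tested. The bound is centred on the family median (2.17 and 2.14 fold), while all genes tested had a median of 1.17 and 1.16. The 71.6% therefore follows in part from that centring and does not measure how closely the members moved together. Rpl36, Rpl36al, Rpl39, Rpl3l, Rps19bp1 and Rps27l departed downward, that is toward cardiomyocytes, and Rps6 departed upward. Rpl3l passed the count minimum only through cardiomyocytes and had to depart. Rps19 stood at the upper bound, at 1.53 and 1.496 times the median, just outside on the second value. Without barcodes over 20% mitochondrial counts the departing members were 4, namely Rpl36al, Rps19bp1, Rps27l and Rps19.

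Among small subunit proteins, Rps6, the substrate of the S6 kinases, had 880 and 890 CPM in cardiomyocytes. It had 3191 and 3092 in fibroblasts, 3220 and 3199 in vascular endothelium, 3993 and 3648 in endocardium, 2642 and 2683 in pericytes, 2249 and 2207 in smooth muscle, and 2636 and 2479 in macrophages. The groups did not overlap, but all 76 standard members tested were higher in each of the 6 types. For Rps6 the mean of the 6 types was 3.40 and 3.24 times the cardiomyocyte level. It departed upward in 3 single types, namely fibroblasts, vascular endothelium and endocardium. Rps19, the gene most often mutated in Diamond-Blackfan anaemia, was at 1634 and 1640 CPM in cardiomyocytes and between 4211 and 6108 in the other 6 types. It departed upward in 4 single types, which were fibroblasts, vascular endothelium, endocardium and macrophages.

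Rps27l, a paralogue of Rps27 known as a p53 target, was nearly level across most types, unlike the standard members. Its level was 600.3 and 597 CPM in cardiomyocytes, 592 and 594 in fibroblasts, 604 and 615 in vascular endothelium, 593 and 590.1 in smooth muscle, and 657 and 649 in macrophages. Pericytes had 486 and 454, and endocardium had 440.5 and 335. Pericytes and endocardium were thus below cardiomyocytes, macrophages a little above, and the other 3 types close to them. The mean of the 6 types was 0.936 and 0.904 times the cardiomyocyte level, or 0.432 and 0.422 times what the family median gives.

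In the large subunit, Rpl36 was at 1788 and 1634 CPM in cardiomyocytes and between 1650.0 and 2583 elsewhere. Its fold over cardiomyocytes was 1.28 and 1.27 in the mean of the 6 types, and it departed downward in all 6 single types. Rpl39, a protein of the peptide exit tunnel, was at 2631 and 2459 CPM in cardiomyocytes and at 3039 to 4274 elsewhere, a fold of 1.42 and 1.40. Rpl5, which carries the 5S ribosomal RNA and restrains Mdm2, departed downward in vascular endothelium, endocardium and macrophages. Its level was 543 and 535 in cardiomyocytes and 684 to 850.2 elsewhere. Rpl36, Rpl39 and Rpl5 therefore were still higher outside cardiomyocytes, by less than most of the family.

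The stalk proteins Rplp0, Rplp1 and Rplp2, which recruit elongation factors, did not move alike. Rplp0 had 1210.0 and 1316 CPM in cardiomyocytes and 2192 to 3379 elsewhere. Rplp2 had 744 and 696 in cardiomyocytes and 1063 to 1652 elsewhere. Rplp1 had 1609 and 1801 in cardiomyocytes and 2119 to 3022 elsewhere, and it departed downward in vascular endothelium, endocardium and pericytes. Rpsa, a small subunit protein also described as a laminin receptor precursor, was at 1019 and 982 in cardiomyocytes, at 2291 and 2258 in fibroblasts, and lowest of the other types in smooth muscle at 1420.0 and 1299. Rps19bp1 was low throughout, at 55.5 and 49.8 CPM in cardiomyocytes and 40.8 to 84.4 elsewhere, with ranges that overlapped.

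Taken type by type, the share of all genes tested that lay as far from the family median ran from 63.3% in smooth muscle over 65.4% in pericytes, 68.1% in endocardium, 74.7% in macrophages and 76.5% in fibroblasts to 77.2% in vascular endothelium. All genes tested had a lower median fold than the family in each type, so these shares also follow in part from the centring. Of 83 members, 8 departed in fibroblasts, 11 in vascular endothelium, 16 in endocardium, 6 in pericytes, 5 in smooth muscle and 8 in macrophages. Rpl36 and Rps27l did so in all 6. Rpl3l did too, with the direction that the count minimum fixes. Endocardium alone among the 6 also had Rpl35, Rps7 and Rps20 above and Rpl38, Rps2 and Rpsa below the bound, which was not tested as a difference between types. Rpl35 and Rps7 are among the members, described further on, whose transcript ends are mostly copied in another counted feature. Rpl35, whose run of pyrimidines is printed above, was at 175 and 159 CPM in cardiomyocytes and 596 and 577 in endocardium.

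Without cardiomyocytes the family was more even. Set against the mean of the other 5 types, the median fold of standard members was 1.08 and 1.09 in fibroblasts, 1.12 and 1.13 in vascular endothelium, 1.06 and 1.09 in endocardium, 0.918 and 0.907 in pericytes, 0.828 and 0.784 in smooth muscle, and 0.935 and 0.976 in macrophages. Of 82 members tested, none departed in fibroblasts, vascular endothelium, pericytes or smooth muscle, where 27.2% to 29.2% of all genes tested did. In macrophages 2 departed (43.6% of all genes tested). Rps29, a small zinc-binding protein, was at 7319 and 5291 CPM there, 1.596 and 1.65 times what the family median gives. Rpl7l1, a paralogue of Rpl7, was at 117 and 121 CPM in macrophages and 38.0 to 85.8 in the other 5 types. In endocardium only Rps27 departed (38.6% of all genes tested), on 24 and 29 counts and with a sequence it shares with Rps27rt.

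The 8 paralogues included genes read at high and at nearly absent levels. Rpl3l, a paralogue of Rpl3 known from striated muscle, had 105 and 102 counts in cardiomyocytes, or 8.73 and 9.59 CPM, just over the minimum of 100 counts. Fibroblasts had 0 and 1 count and vascular endothelium 2 and 3. Endocardium, pericytes and smooth muscle had 0 in both replicates, which allows up to 3.02, 3.20 and 2.78 CPM with both pooled. Macrophages had 3 and 2 counts, or 6.53 CPM pooled. Tnnt2 was at 328 and 307 CPM in macrophages and at 791 and 776 CPM in smooth muscle, which had no Rpl3l count. Where the macrophage counts came from was not tested. Even in cardiomyocytes Rpl3l made up 0.921% of the counts of the pair with Rpl3 (95% exact interval 0.801 to 1.06%), whereas Rpl3 itself was at 970.4 and 995 CPM there and 2347 to 3253 in the other types.

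Rpl22l1, the paralogue of Rpl22, held more than its partner's counts in all 7 types, from 55.2% of the pair in macrophages over 60.7% in cardiomyocytes to 67.3% in fibroblasts and 67.4% in smooth muscle, with replicates pooled. Its level was 654 and 681 CPM in cardiomyocytes and 1903 and 1975 in fibroblasts, where Rpl22 went from 426 and 439 to 956 and 927. Rpl36al held 35.9% and 35.8% of the pair with Rpl36a in cardiomyocytes, 37.3% and 37.1% in macrophages, 29.3% and 27.5% in smooth muscle, and 16.9% to 24.1% in the other 4 types. Cardiomyocytes and macrophages thus stood together at the top of this pair. Their levels differed, with Rpl36al at 479 and 490.3 CPM and Rpl36a at 857 and 878 in cardiomyocytes, against 886 and 835 and then 1491 and 1413 in macrophages. Rpl39l and Rpl10l were near the floor, with 6 and 3 counts over all cardiomyocytes. Rps4l is not among the features analysed here. Shares of a pair compare genes with different transcripts, so they are read across types and not as amounts of protein.

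**Figure D3:**
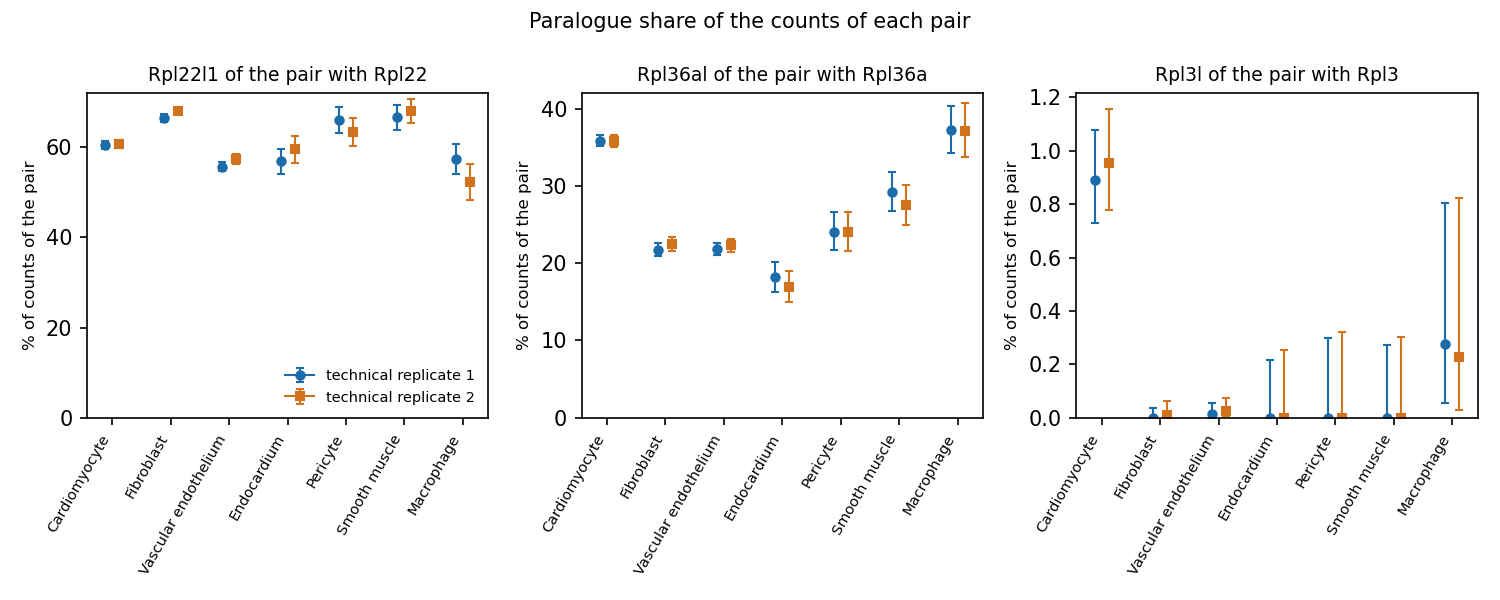
Share of the counts of a pair (y axis, percent) that belongs to Rpl22l1, Rpl36al and Rpl3l in 7 cell types (x axis), with technical replicates 1 and 2 as circles and squares and 95% exact intervals for counting error. Rpl36al is highest in cardiomyocytes and macrophages, and Rpl3l has 0.891% and 0.954% of its pair in cardiomyocytes.

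Atrial and ventricular cardiomyocytes had nearly the same share. Cardiomyocytes in which atrial genes made up 70% or more of 6 chamber genes had a ribosomal protein share of 8.67% and 8.38% (767 and 655 cells), and those with under 30% had 8.58% and 8.55% (2137 and 1817 cells), a difference whose sign changed between replicates. Atrial cells had a median of 21.7% mitochondrial counts and ventricular cells 41.2%. The 1 member that departed was Rpl3l, where 14.3% of all genes tested departed. It reached the count minimum mainly through ventricular cells, so its departure is a description. It was at 10.0 and 11.3 CPM in ventricular and 5.72 and 5.61 in atrial cardiomyocytes, from 84 and 83 counts against 20 and 18. Rpl22l1 leaned the other way without reaching the bound, at 841 and 872 CPM in atrial and 572 and 598 in ventricular cells.

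Ribosomal protein shares of cycling and non-cycling cells were compared after every cell was thinned to 1500 non-mitochondrial counts. In the thinned cell, a cycling call needed at least 3 counts of S or G2M genes and a non-cycling call at most 1. Fibroblasts had 18.2% and 17.5% ribosomal protein counts when cycling (217 and 164 cells) and 19.2% and 18.8% when not (323 and 313 cells). The ratio was 0.946 and 0.932, a lower share by 1.04 and 1.28 percentage points. Vascular endothelium had 18.9% and 18.1% when cycling and 19.3% and 18.7% when not, a ratio of 0.979 and 0.966. Without thinning, at median depths of 11785 and 6388 counts, cycling endothelium had 19.89% and non-cycling 19.59% in replicate 1, and 19.28% and 19.41% in replicate 2. The direction in endothelium thus turned with thinning in replicate 1 and stayed in replicate 2. Cardiomyocytes had 8.36% and 8.20% when cycling (545 and 428 cells) and 8.45% and 8.30% when not (1823 and 1602 cells), a ratio of 0.989 and 0.988. That ratio was above 1 without the haemoglobin limit (1.12), without barcodes over 20% mitochondrial counts (1.06) and with G2M genes alone (1.01), so its direction is not settled. Shallower cells were left out, which removed 475 cardiomyocytes and 1 cell each of the other 2 types. The S and G2M counts that make the call also lie in the denominator of the share. This lowers the share of cycling cells by construction, to an extent that was not measured.

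In types with fewer than 50 cells of a state in 1 replicate, smooth muscle had a ratio of 0.904 and 0.900 and pericytes 0.930 and 0.879. Endocardium (1.02 and 0.939) and macrophages (0.956 and 1.00) differed between replicates by more than the distance from 1.

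**Figure D4:**
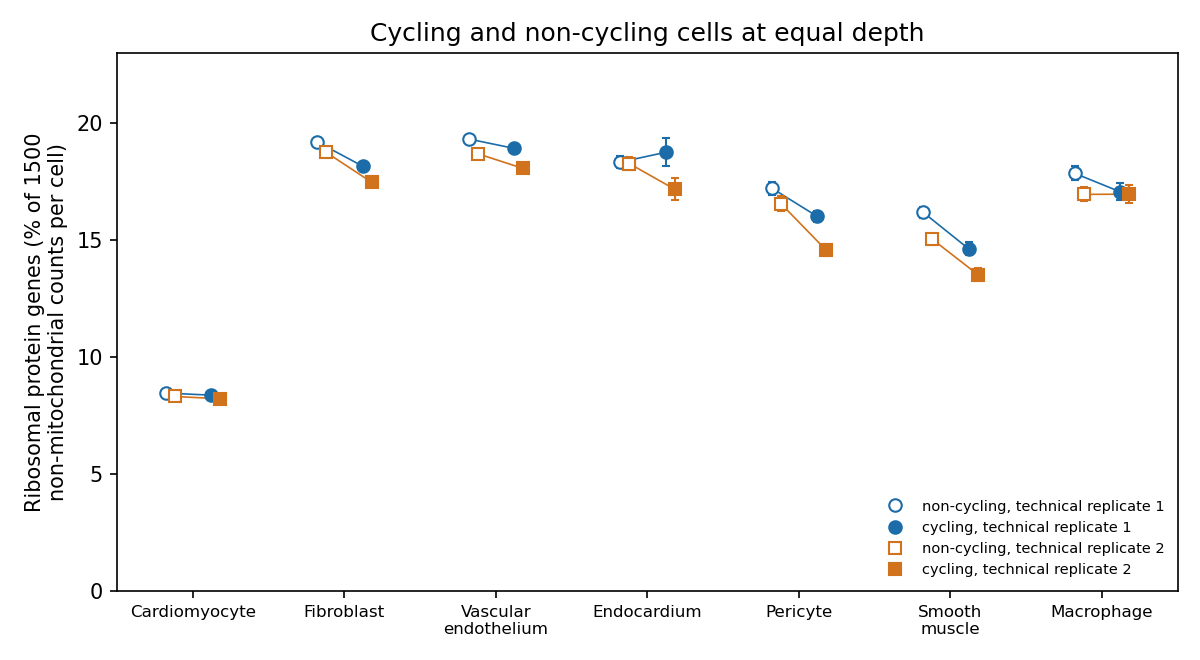
Share of ribosomal protein counts after thinning each cell to 1500 non-mitochondrial counts (y axis, percent) in non-cycling (open) and cycling (filled) cells of 7 types (x axis), with lines joining the states of 1 technical replicate and bars for 95% exact counting intervals. The lines fall in fibroblasts, vascular endothelium, pericytes and smooth muscle, and are nearly flat in cardiomyocytes.

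Folds of single genes used all counts of the same cells, without thinning. They are thus not matched for depth, which in vascular endothelium had a median of 11785 counts in cycling and 6388 in non-cycling cells. Read this way, the family did not split with the cell cycle. No member differed by 25% or more (a ratio at least that far above 1, or its inverse) in both replicates in cardiomyocytes (all genes tested: 15.4% higher, 5.59% lower), fibroblasts (10.1% and 7.34%) or vascular endothelium (9.49% and 7.99%). No member departed from the family median by that ratio, where 22.3%, 18.0% and 17.4% of all genes tested did. In fibroblasts, 63 of 74 standard members were below 1 in both replicates, with a median of 0.937 and 0.926 beside 0.974 and 0.982 for all genes tested. Rpsa came near the bound in vascular endothelium, at 1857 and 1754 CPM in cycling and 1530.0 and 1515 in non-cycling cells. Rps27l did too, at 637 and 643 against 532 and 521.

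Lists of genes that act with the ribosome were read against the shares of all genes tested. Of 20 genes for elongation factors and other TOP transcripts tested, 13 were at least 1.5 times higher in the mean of the 6 types than in cardiomyocytes (34.6% of all genes tested) and none was that much lower (22.0%). The median fold was 1.83 and 1.80, with Eif3k (2.31 and 2.26 fold), Eif3f (2.26 and 2.21 fold), both subunits of initiation factor 3, and Eef1g (2.21 and 2.103 fold), a subunit of elongation factor 1, the highest. Tpt1, another TOP transcript, was at 0.819 and 0.836 fold. Of 45 ribosome biogenesis genes tested, 18 were higher, a share near the 34.6% of all genes, and 2 were lower, against 22.0%. The median fold of this list was 1.505 and 1.462, above the 1.17 and 1.16 of all genes tested. Ddx18, an RNA helicase, was at 3.81 and 2.60 fold, Gar1 and Nop56, of the small nucleolar particles that modify ribosomal RNA, at 3.04 and 2.78 and at 2.82 and 3.04 fold. The 2 that were lower were Polr1a, the largest subunit of RNA polymerase I (0.532 and 0.533 fold), and its initiation factor Rrn3 (0.558 and 0.524 fold). Single types differed. Biogenesis genes higher were 23 of 42 in pericytes (24.6% of all genes tested), 21 of 44 in fibroblasts (27.9%) and 17 of 42 in macrophages (18.1%). They were 14 of 44 in vascular endothelium (29.5%), 11 of 43 in endocardium (25.4%) and 11 of 43 in smooth muscle (20.1%). The list median was above that of all genes in each type. It ran from 1.23 and 1.13 in endocardium (all genes 1.04 in both replicates) to 1.94 and 1.88 in pericytes (0.998 and 0.959).

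Among 24 regulators tested, 9 were higher and 5 lower, shares near those of all genes tested (34.6% and 22.0%), so the list as a whole did not stand out and the values of its members are given as a description. Myc was at 24.9 and 27.8 CPM in the mean of the 6 types and 2.74 and 3.67 in cardiomyocytes. That is 9.06 and 7.57 fold, beside 7.67 and 10.0 fold for the kinase gene Rps6ka1 and 3.46 and 3.22 fold for Rps6ka2. The cardiomyocyte counts of Myc alone were below the count minimum in both replicates. Myc passed it only through the 6 types, so the direction of its fold follows from the minimum and its size is uncertain. Eif4ebp1, the mTOR target that holds back cap-dependent initiation, was at 179 and 177 CPM in the 6 types and 399 in cardiomyocytes in both replicates. Larp4 (0.423 and 0.312 fold) and Tsc2 (0.471 and 0.473 fold) were also lower.

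For the ribosome of mitochondria, 1 of 77 tested genes was higher outside cardiomyocytes (Mrpl17, at 2.37 and 2.48 fold), where 34.6% of all genes were. Another 23 were lower, where 22.0% of all genes were. The median fold of the list was 0.791 and 0.770, beside 1.17 and 1.16 for all genes. Mrpl42 was at 189 and 196 CPM in the 6 types and 655 and 687 in cardiomyocytes. Mrps36 (0.356 and 0.381 fold) and Mrpl34 (0.362 and 0.361 fold) followed. The list was taken by symbol alone, Mrpl or Mrps followed by a digit. Whether each product, that of Mrps36 included, is part of the mitochondrial ribosome was not checked. By type, the list median was 0.610 and 0.527 in endocardium, beside 1.04 in both replicates for all genes. It was 0.760 and 0.719 in fibroblasts (all genes 1.00 and 0.993) and 0.741 and 0.7445 in vascular endothelium (1.03 and 1.02). Pericytes had 0.860 and 0.935 (0.998 and 0.959) and smooth muscle 0.775 and 0.815 (0.9145 and 0.914). In macrophages it was not below all genes, at 0.809 and 0.715 (0.744 and 0.696).

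Between cycling and non-cycling cells, again without thinning, few of these genes differed by 1.5 times. In cardiomyocytes, where 7.22% of all genes tested were that much higher in cycling cells, 2 of 38 biogenesis genes were, namely Nop56 (1.81 and 1.64 fold) and Nop58 (1.99 and 2.13 fold). In vascular endothelium (5.18% of all genes tested) 3 of 21 were, with Nop56 at 2.08 and 1.90, Nop58 at 1.94 and 1.82 and Nhp2 at 1.75 and 1.54 fold. Of 19 TOP genes, 1 was higher in each of these types, Nap1l1, a histone chaperone, at 2.11 fold in both replicates of cardiomyocytes and 1.86 and 2.06 fold in endothelium. Of the mitochondrial genes, 1 of 65 was higher in endothelium (Mrpl18, at 1.63 and 1.66 fold) and 2 of 58 in fibroblasts, where 5.13% of all genes tested were. These were Mrpl51 (1.85 and 1.84 fold) and Mrpl18 (1.72 fold in both). In fibroblasts 1 of 19 biogenesis genes was lower, Nip7 at 0.613 and 0.647 fold (1.39% of all genes tested). No regulator passed in the 3 types.

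Some members differed between the technical replicates in the same direction in every type tested. Rps29 was 1.31 to 1.57 times higher in replicate 1 than the family median in all 7 types and Rpl38 1.26 to 1.36 times. In cardiomyocytes Rps29 was at 3326 and 2245 CPM and Rpl38 at 1349 and 1046. Lower in replicate 1 were Rpl15 at 0.571 to 0.782 times and Rpl7a at 0.642 to 0.811 times in 7 types, and Rpl27 at 0.534 to 0.622 times in 3. In cardiomyocytes 10 of 83 members differed by 25% or more (6.09% of all genes tested), as did 9 of 82 in fibroblasts (11.5%) and 8 of 82 in vascular endothelium (10.4%). In the smaller types 5 of 75 did in endocardium (21.7%), 6 in pericytes (19.1%), 7 in smooth muscle (30.1%) and 4 in macrophages (23.8%). Differences between types for these genes are therefore read within a replicate.

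**Figure D5:**
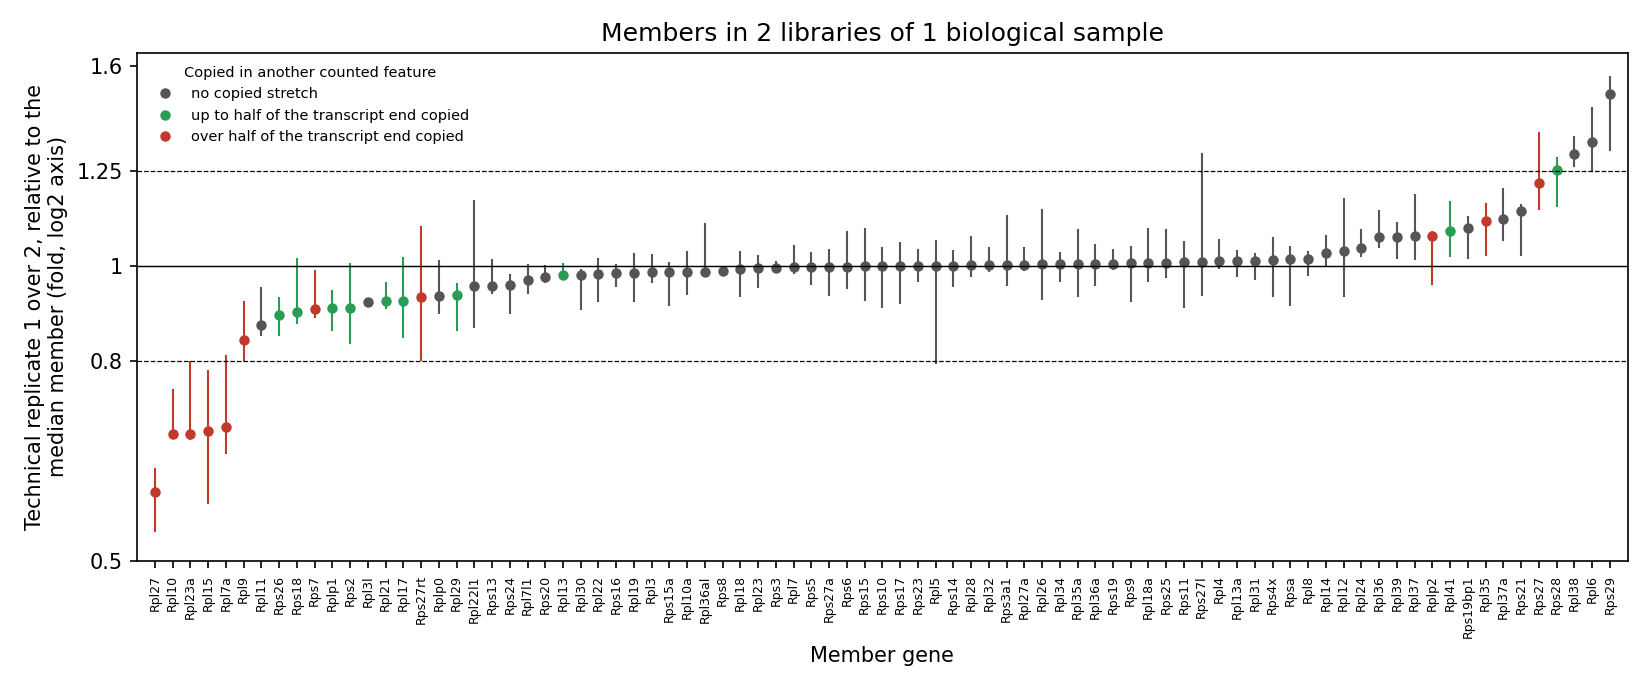
Level in technical replicate 1 over 2 relative to the median member (y axis, fold on a log2 scale) for each member (x axis), with points for the median over cell types and lines for the lowest to the highest type. Dashed lines mark a ratio 25% above 1 and its inverse. The 5 members below 0.8 all have most of their transcript end copied in another counted feature, and Rps29 is highest at 1.498.

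Features also share sequence. Of the standard members, 11 have over 50% of the 90-base stretches in the last 300 bases of the transcript copied exactly in another counted feature, which leaves a read from there with no single origin. Of these 11, 9 had under 500 CPM over all kept cells of replicate 1 (median 44.7), while none of the 56 members without such a copy did (median 1953). Levels of different genes are not compared further, since transcripts differ in length. Rps12 had 100 and 118 counts where Rps12-ps3, a pseudogene feature, had 3456 and 3534, and Rpl23a had 799 and 1005 where Rpl23a-ps3 had 3621 and 4510. The median ratio of replicate 1 to 2 was 0.763 for the 10 of these members that could be tested and 1.00 for the 56 without a copy. All 5 members below 0.8 (Rpl7a, Rpl10, Rpl15, Rpl23a and Rpl27) were among the former, and Rps29, Rpl38 and Rpl6, each over 25% higher, were among the latter. Whether reads were assigned differently in the 2 libraries was not tested. The 17 pseudogene features named after members together held 0.693% and 0.842% as many counts as the members did. The 11 members with copied ends, Rpl10, Rpl35, Rplp2, Rps7 and Rps27 among them, are counted apart from their copies. How reads from the copied stretches were assigned or left out was not tested, so these counts may not give full levels.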

How the data were processed

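Single cells of P0 whole heart were captured with the 10x Chromium 3′ version 2 kit after 30 min of trypsin digestion at 37 °C, per the labels' protocols. The authors deposited whole-number counts per gene and barcode, not normalised. Cell Ranger 2.1.0 and the genome build mm10 are listed, with no role given, in the submitters' processing notes. Counts were used as deposited (34668956 and 33871582 per technical replicate), with symbols from the gene name table (27645 of 27999 features matched) and gene types and transcripts from GENCODE vM21 on GRCm38.

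Members and lists were chosen with earlier results of these data known. Markers were listed first, but the scoring rule for gates was set after their scores were seen. A cardiomyocyte had at least 1% of non-mitochondrial counts from 14 markers. Another cell had less, at least 50% of 1 list detected and a lead of 10 percentage points over the next list. Of kept barcodes, 183 had 0.5 to 2% cardiomyocyte markers. The 95% intervals, Clopper-Pearson for shares and conditional binomial for ratios, are exact and cover counting error only. Folds needed 100 counts over both groups in each replicate and the bound (1.5, or 25% above 1 and its inverse for cycling) in both. For a mean of several types, the minimum was applied to the equally weighted mean profile scaled to the summed counts of those types. A gene could therefore pass there on fewer actual counts from a small type. Named genes are the paralogue pairs, Rplp0, Rplp1, Rplp2, Rpsa, Rps6 and Rps19bp1, up to 8 further members with the largest departure in a comparison, members nearest the median, and up to 3 genes per companion list and direction. Fau, Tpt1 and Tnnt2, the members printed for their windows, and members named for copies or technical differences were chosen after their values were seen. No test was run, since there is 1 biological sample. Code was tested on simulated data. Tools were pandas 2.3.3, scipy 1.17.1 and numpy 2.4.6 under Python 3.11.15, with matplotlib 3.10.9 for plots. Denominators, cell filters, gates, depth, count minimums, folds and each replicate were varied.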

Additional observations from a re-analysis of the deposited data

How the results depend on the processing

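No paired analysis was possible because there is 1 group and no test. The ratio of the 6 other types to cardiomyocytes, 2.22, stayed above 1 in all 15 alternatives. It was 3.29 with mitochondrial counts in the denominator, 2.07 without the cardiomyocyte markers in it, 1.99 without the 100 highest non-member genes, 2.07 without barcodes over 20% mitochondrial counts, 2.11 with no haemoglobin limit, 2.29 with a limit of 0.1%, 2.18 as a mean over cells, 2.16 after thinning and 2.15 in cells under 10% mitochondrial counts, and 2.20 to 2.23 with either replicate left out.

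The cycling ratio in cardiomyocytes, 0.989, crossed 1 without barcodes over 20% mitochondrial counts (1.06), with no haemoglobin limit (1.12) and with G2M genes alone (1.01). It was 0.976 with mitochondrial counts in the denominator, 0.973 without cardiomyocyte markers, 0.940 without the 100 highest genes, 0.959 with a haemoglobin limit of 0.1%, 0.988 with standard members only, 0.971 from 5 cycle counts, 0.983 without thinning and 0.921 with S genes alone, and 0.988 to 0.989 with a replicate left out. In fibroblasts, 0.941, it was below 1 in all 15 alternatives (0.932 to 0.946 with a replicate left out), at 0.906 from 5 counts and 0.886 with G2M genes. In vascular endothelium, 0.971, it was 1.004 without thinning, 0.966 to 0.979 with a replicate left out, 0.961 with the limit of 0.1%, 0.946 from 5 counts and 0.947 with G2M genes. The cause of these changes was not tested.

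Departing members numbered 7, and 4 without barcodes over 20% mitochondrial counts, 5 with no haemoglobin limit (Rps6 and Rpl39 lost), 2 at fold 2 (Rpl3l and Rps27l), 10 with all other gated cells summed, and 9 with either replicate left out. Departures with cycling numbered 0, and 1 with no haemoglobin limit, 3 at a minimum of 20 counts, 6 with none, and 5 to 6 when 1 replicate decided. In the companion lists, fold 2 left 10 biogenesis genes higher and 0 lower, 6 TOP genes higher, 9 mitochondrial ribosome genes lower and 3 regulators lower. Without barcodes over 20% mitochondrial counts, 0 biogenesis genes and 1 regulator were lower. Of 252 values for single types and members under the alternatives, 153 were scored as staying within a limit and 99 as moving past it. The limit was the spread between replicates, except for counts of standard members, which have no such spread. Among ratios and folds 0 changed direction. Percent shares and counts, which are among the 252, have no direction that could change. Values with a replicate left out were set against a spread from the same replicates, so they say little about stability. Depth limits Rpl3l, Rpl10l and Rpl39l outside cardiomyocytes, and members of types with fewer than 150 cells.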
